A study of Mus musculus with 18 samples.

Results

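Glycolysis genes and genes of the cellular response to low oxygen were examined in AT-3 and E0771, both mouse mammary carcinoma lines, after induction of MRTFA, the coactivator that binds the transcription factor SRF when actin monomers are scarce. The 36 genes were taken from a written list of glucose transporters, glycolytic enzymes, lactate handling proteins, oxygen sensors and hypoxia-induced genes. They gave 37 of the 32286 entries counted, because Aldoa had a second, short entry (ENSMUSG00000114515), and all 37 were among the 17841 entries that passed the low-count filter. In each line the groups were cells with wild-type MRTFA, cells with Y238A MRTFA, a mutant that the labels call deficient in SRF binding, and cells with the empty pRetroX vector. Every culture, with empty vector too, had 2 µg/ml doxycycline for 48 h, the agent that induces this retroviral vector. There were 6 groups of 3 libraries, from what the series calls separate replicate sets. It does not say whether the sets were separate cultures, so p-values measure the spread between these libraries, which may be technical. The constructs were integrated by a retrovirus and present at unequal levels, and no label says whether the lines are clones, so an effect of the construct cannot be told apart from one of the line that carries it.

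In glycolysis, glucose enters through GLUT transporters, is phosphorylated by hexokinase, committed by phosphofructokinase, split by aldolase and carried through the lower enzymes to pyruvate, which lactate dehydrogenase turns to lactate when pyruvate is not sent to mitochondria. The alpha subunits HIF-1α and HIF-2α (Hif1a and Epas1) are hydroxylated by the EGLN prolyl hydroxylases while oxygen is present and are then degraded through the VHL ligase. When oxygen falls they persist, pair with ARNT and bind hypoxia response elements at many genes of glycolysis, pH control and blood vessel growth, a programme that carcinoma cells often run in culture too. Messenger RNA alone was measured here, so protein, hydroxylation, oxygen and glucose flux were not analysed here, and in bulk cultures fewer cells of a type and less RNA per cell cannot be told apart.

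The 250 bases upstream of the RefSeq start (GRCm38.p6) are shown for 7 members with a single such start. Of these, 4 were higher with wild-type MRTFA in both lines, Slc16a1 and Eno2 were lower in both, and Tpi1 was lower in AT-3 only. They were chosen after the values were seen. Capitals mark the core of the hypoxia response element, ACGTG or GCGTG, read on either strand, so that CACGT and CACGC mark the opposite strand.
Slc2a1: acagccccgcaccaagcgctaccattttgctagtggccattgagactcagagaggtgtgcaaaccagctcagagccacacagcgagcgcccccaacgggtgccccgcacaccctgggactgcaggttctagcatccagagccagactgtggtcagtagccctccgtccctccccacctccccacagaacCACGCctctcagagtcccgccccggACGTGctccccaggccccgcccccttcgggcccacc
Pfkp: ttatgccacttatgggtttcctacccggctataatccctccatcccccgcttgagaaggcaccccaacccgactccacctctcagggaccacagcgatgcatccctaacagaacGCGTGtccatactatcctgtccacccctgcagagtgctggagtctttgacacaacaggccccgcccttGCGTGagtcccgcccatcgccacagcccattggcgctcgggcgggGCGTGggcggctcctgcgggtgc
Egln3: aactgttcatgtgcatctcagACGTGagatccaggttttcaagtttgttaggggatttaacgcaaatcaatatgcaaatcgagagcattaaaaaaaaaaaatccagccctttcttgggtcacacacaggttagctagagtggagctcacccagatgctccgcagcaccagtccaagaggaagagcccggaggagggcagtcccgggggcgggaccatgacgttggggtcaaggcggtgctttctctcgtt
Adm: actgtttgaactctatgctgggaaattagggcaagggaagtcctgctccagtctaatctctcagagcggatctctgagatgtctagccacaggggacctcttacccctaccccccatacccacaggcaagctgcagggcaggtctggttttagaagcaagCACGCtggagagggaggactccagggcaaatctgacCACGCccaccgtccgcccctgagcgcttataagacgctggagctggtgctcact
Slc16a1: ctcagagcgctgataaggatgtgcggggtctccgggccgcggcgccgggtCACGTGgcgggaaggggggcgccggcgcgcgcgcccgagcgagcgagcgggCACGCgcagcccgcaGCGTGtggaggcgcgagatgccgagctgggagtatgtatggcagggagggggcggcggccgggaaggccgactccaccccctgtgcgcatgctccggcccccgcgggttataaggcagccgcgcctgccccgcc
Tpi1: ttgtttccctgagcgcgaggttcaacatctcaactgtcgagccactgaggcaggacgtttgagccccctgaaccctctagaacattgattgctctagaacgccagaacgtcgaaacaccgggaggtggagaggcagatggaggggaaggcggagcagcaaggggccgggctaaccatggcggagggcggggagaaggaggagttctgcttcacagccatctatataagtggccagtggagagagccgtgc
Eno2: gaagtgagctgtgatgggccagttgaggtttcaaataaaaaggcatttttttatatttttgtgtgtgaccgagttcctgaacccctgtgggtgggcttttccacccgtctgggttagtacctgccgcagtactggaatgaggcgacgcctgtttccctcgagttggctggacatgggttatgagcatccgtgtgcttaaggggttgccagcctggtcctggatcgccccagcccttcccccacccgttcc
These lie at chr4:119108495-119108744 (plus strand, Slc2a1), chr13:6648772-6649021 (minus strand, Pfkp), chr12:54203875-54204124 (minus strand, Egln3), chr7:110627407-110627656 (plus strand, Adm), chr3:104638414-104638663 (plus strand, Slc16a1), chr6:124814159-124814408 (minus strand, Tpi1) and chr6:124769674-124769923 (minus strand, Eno2). The Slc2a1 window held a core 61 and another 36 bases before the start, the Pfkp window had 3 cores at 136, 68 and 23 bases, Egln3 had 1 at 229 bases and Adm had 2 at 90 and 54 bases. Slc16a1 had 3, of which the first, 200 bases before the start, reads on both strands, and the others lay at 149 and 134 bases. Of 33 members with a RefSeq window, 30 held at least 1 core, and the 3 without were Gpi1, Tpi1 and Eno2. Members that were lower with wild-type MRTFA in AT-3 held cores too, among them Slc16a1 and Pgam1, with 3 each, Vegfa, Pfkm and Egln1, with up to 2 in a window, and Pdk1 and Ldhb, with 1. The 2 cores of Vegfa were in its window at chr17:46025164-46025413, which lies within the gene. Its window upstream of the gene, at chr17:46032378-46032627, held 0. Counted by window, with overlapping matches taken as 1, 38 of 47 member windows (80.9%) held a core, against 12679 of 32851 windows of all genes (38.6%), while the median GC content was 60.4% in the members and 52.4% in all. The CArG box, the motif that SRF binds, was in 0 of the 47 member windows and in 482 (1.5%) of all. Slc2a3, Epas1 and Ndrg1 had no window in the table used. A match is a description of letters, not of binding.

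Library totals ran between 81265466 and 115260128 counts, and CPM are counts scaled by TMM to a common library size. The MRTFA entry, taken as the construct, averaged 5434 ± 1445 CPM with wild-type MRTFA and 2105 ± 195 CPM with Y238A in AT-3, against 0.016 ± 0.0138 CPM with empty vector (SD, n = 3). In E0771 it averaged 761 ± 91.1 CPM with wild-type MRTFA and 320 ± 37.4 CPM with Y238A, against 0.0736 ± 0.0639 CPM with empty vector. Of 7 mammary epithelial markers, Cdh1 and Epcam averaged at most 1.01 and 2.38 CPM in any group, Krt18 at most 0.483 CPM. Krt8 averaged 10 CPM with wild-type MRTFA and 0.128 CPM with Y238A in AT-3, against 0.0573 CPM with empty vector, and 622 and 387 CPM with wild-type MRTFA and Y238A in E0771, against 317 CPM with empty vector. Krt19 averaged 33.6 CPM with wild-type MRTFA and 69.5 CPM with Y238A in AT-3, against 3.88 CPM with empty vector. The list summed to 46.7 to 50.1 CPM with wild-type MRTFA and 76.9 to 94.8 CPM with Y238A in AT-3, against 12.4 to 12.8 CPM with empty vector, and with wild type 3 of the 7 rose and 1 fell. In E0771 it summed to 570 to 683 CPM with wild-type MRTFA and 377 to 402 CPM with Y238A, against 305 to 330 CPM with empty vector, and 2 of the 7 rose with wild type. The leukocyte and fibroblast markers were uneven. Ptprc averaged at most 0.159 CPM in any group, Dcn at most 0.108 CPM, and Adgre1, Cd3e and Lum less than 0.1 CPM, while others of these lists were abundant. The 7 leukocyte markers summed to 25.4 to 25.7 CPM with wild-type MRTFA and 71.6 to 77 CPM with Y238A in AT-3, against 5.38 to 6.11 CPM with empty vector, most of it Cd68. With wild type 3 of the 4 tested rose (Cd68, Csf1r and Itgam) and 1 fell. The median log2 fold change of the 4 was 3.40, against 0.07 over all genes. In E0771 the 7 markers summed to 6.11 to 6.67 CPM with wild-type MRTFA and 15.2 to 20 CPM with Y238A, against 7.73 to 9.64 CPM with empty vector, and with wild type 0 of 4 passed. The summed fibroblast list lay at 88.9 to 104 CPM with wild-type MRTFA and 382 to 427 CPM with Y238A in AT-3, against 505 to 547 CPM with empty vector, and 2 of the 4 tested fell with wild type. In E0771 it lay at 132 to 145 CPM with wild-type MRTFA and 266 to 298 CPM with Y238A, against 185 to 206 CPM with empty vector, and all 4 tested fell with wild type. Beside these marker counts, 68.6% of all genes were called with wild type against empty vector in AT-3 and 24.5% in E0771. The part of these 3 lists in the results was not tested. E0771 empty vector replicate 2, wild-type replicate 2 and Y238A replicate 1 held 1.35%, 0.508% and 0.269% of the AT-3 level of 240 AT-3 genes, which touches members near 0 in E0771. The AT-3 wild-type libraries held 0.272%, 0.236% and 0.225% of the E0771 level of 85 E0771 genes, and the other AT-3 libraries 0.0366% to 0.136%. An alternative left out those E0771 libraries and AT-3 Y238A replicate 1 (0.0886%), called the 4 carry-over libraries here. They are not the 4 highest, as every AT-3 wild-type library held more than AT-3 Y238A replicate 1. The E0771 Y238A libraries were spread. In replicate 2, 18 of the members differed by more than 0.25 in log2 from the mean of its partners, and in replicate 3, 12 did, against at most 5 in any library of the other groups. The test used all 18 libraries.

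With wild-type MRTFA in AT-3, 18 of the 37 entries rose and 11 fell against empty vector, 29 in all, or 78.4%, where 68.6% of all genes tested passed the same threshold of an adjusted p of 0.05. The members' median log2 fold change was 0.30, against 0.07 over all genes. In E0771, where wild-type MRTFA was itself less abundant, 12 members rose and 3 fell, or 40.5% against 24.5% of all genes, with medians of 0.06 in the members and -0.05 in all genes. With Y238A, 12 members rose and 7 fell in AT-3 (51.4% against 43.7% of all genes), and 1 rose and 4 fell in E0771 (13.5% against 12% of all genes, and for the lower calls 6.64% of all genes). Set against Y238A, wild-type MRTFA left 18 members higher and 12 lower in AT-3 (81.1% against 66.2%) and 12 higher and 4 lower in E0771 (43.2% against 25.7%). These 3 comparisons per line share libraries, and their counts are not independent.

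The members moved in both directions. By role, 5 of 7 lower glycolysis entries and 3 of 4 oxygen sensors rose with wild-type MRTFA in AT-3 and the other 2 enzymes and 1 sensor fell, whereas upper glycolysis was split, with 3 of 8 higher and 4 lower, and among lactate and pyruvate genes 3 of 5 fell and 1 rose. Of all genes 36.4% rose and 32.2% fell in that comparison, and no role was tested against them. All 29 calls of wild type against empty vector in AT-3 held in each of the alternative settings run. Of the 15 calls in E0771, 12 did, and the 3 that were lost in at least 1 setting were Hk1, Pfkp and Eno2. Library totals in place of TMM moved the median of all genes by -0.15 in AT-3 wild type against empty vector and by -0.17 against Y238A, so small AT-3 changes are relative to that scale. Against Y238A, 16 members were then higher and 16 lower.

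**Figure D1:**
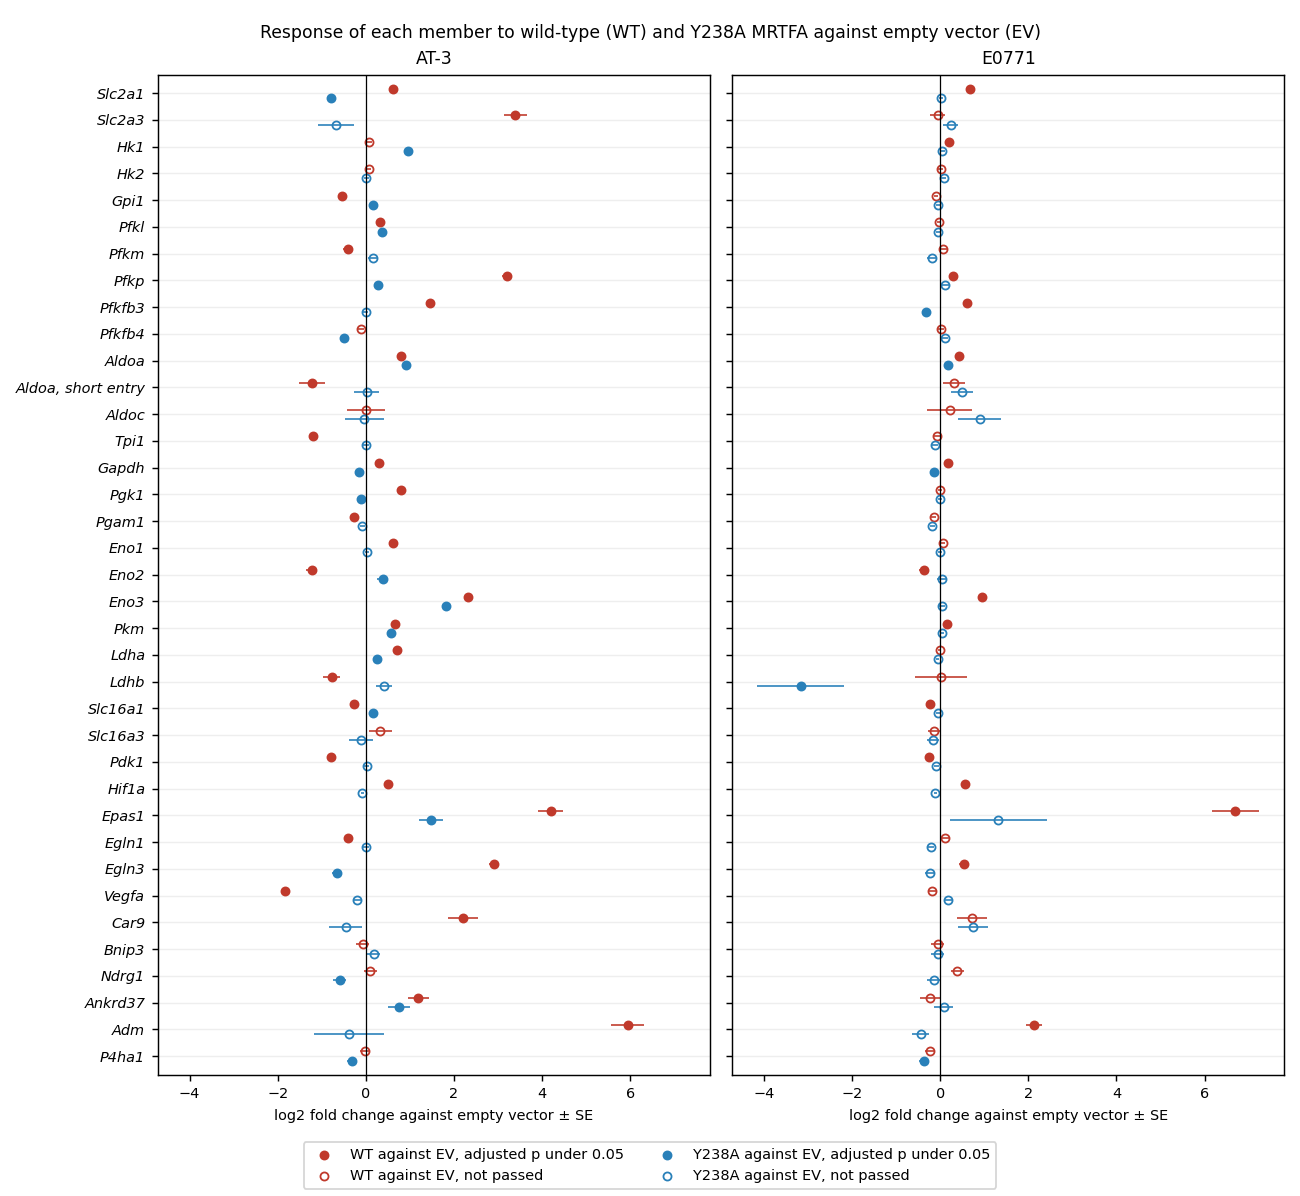
Log2 fold changes against empty vector (x axis, ± SE) of the 37 entries in pathway order (y axis) for wild-type MRTFA (red, upper point of each pair) and Y238A (blue, lower point), in AT-3 (left) and E0771 (right), n = 3 libraries a group; filled points had an adjusted p under 0.05. Wild-type points spread from -1.83 for Vegfa to 5.94 for Adm in AT-3, and in E0771 most lie near 0, with Epas1 at 6.70 and Adm at 2.13.

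Of the 4 genes of glucose entry, 2 were called in each line with wild-type MRTFA. The share of all genes called was 68.6% in AT-3 and 24.5% in E0771. In both lines Slc2a1 mRNA, which encodes GLUT1, the glucose transporter of most cells, was among the 2 called. Slc2a1 had 167, 172 and 170 CPM with wild-type MRTFA and 65, 64.6 and 63.2 CPM with Y238A in AT-3, against 109, 111 and 113 CPM with empty vector. In E0771 cells the values were 283, 272 and 286 CPM with wild-type MRTFA and 171, 181 and 181 CPM with Y238A, against 171, 174 and 183 CPM with empty vector. In both lines every wild-type library was above every empty vector library, whereas Y238A lay below empty vector in AT-3 and overlapped it in E0771. The log2 fold change of wild type against empty vector was 0.62 ± 0.04 in AT-3 (adjusted p = 1.8e-11) and 0.67 ± 0.04 in E0771 (adjusted p = 4.36e-11). For Y238A it was -0.79 ± 0.04 in AT-3 (adjusted p = 2.64e-12) and 0.02 ± 0.04 in E0771 (adjusted p = 0.854), and that difference between lines was 0.80 (adjusted p = 1.74e-09).

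Slc2a3, which encodes GLUT3, a transporter of high affinity, had 5.18, 4.17 and 2.84 CPM with wild-type MRTFA and 0.129, 0.22 and 0.378 CPM with Y238A in AT-3, against 0.463, 0.221 and 0.495 CPM with empty vector. Wild type stood clear of both other groups and was higher by 3.39 ± 0.26 than empty vector (adjusted p = 4.28e-09), while Y238A, at -0.68 ± 0.40, overlapped empty vector (adjusted p = 0.185), although without Y238A replicate 3 it passed at -1.14 (adjusted p = 0.0492, the lowest of the alternatives, the highest being 0.526). In E0771 the gene averaged 28.7 ± 0.344 CPM with wild-type MRTFA and 35.3 ± 3.18 CPM with Y238A, against 29.8 ± 0.718 CPM with empty vector, and no construct contrast passed, although with each line fitted alone Y238A did (adjusted p = 0.0344 against empty vector). Hk1, the hexokinase of most tissues, gave the opposite order of constructs in AT-3, with 324, 298 and 294 CPM for wild-type MRTFA and 531, 562 and 581 CPM for Y238A, against 284, 288 and 293 CPM for empty vector. Hk1 rose by 0.95 ± 0.06 with Y238A (adjusted p = 2.53e-10), and its value with wild type was 0.08 ± 0.06 (adjusted p = 0.266). In E0771 its rise with wild type was 0.19 ± 0.06 (adjusted p = 0.0343), a call lost in 6 of 14 alternatives, among them the omission of any wild-type library or of empty vector replicate 1 or 3 (adjusted p over the alternatives between 0.00511 and 0.114). Hk2, the hexokinase tied to mitochondria and often raised in tumours, passed in no construct contrast of either line, with values between -0.08 and 0.08.

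In upper glycolysis the phosphofructokinases, which catalyse the committed step, diverged. Pfkp, the platelet isoform, had 813, 657 and 629 CPM with wild-type MRTFA and 98.4, 90.7 and 89.2 CPM with Y238A in AT-3, against 74.8, 73.2 and 81.3 CPM with empty vector. All 3 wild-type libraries were far above the rest, and the log2 fold change was 3.19 ± 0.11, a 9.16-fold rise (adjusted p = 4.31e-13). The Y238A value, 0.28 ± 0.10 (adjusted p = 0.0408), was lost in 8 of 14 alternatives, among them the omission of any Y238A library or of empty vector replicate 1 or 2 (adjusted p up to 0.143). In E0771 Pfkp had 258, 274 and 265 CPM with wild-type MRTFA and 247, 191 and 262 CPM with Y238A, against 207, 223 and 217 CPM with empty vector. That wild-type rise of 0.30 ± 0.10 (adjusted p = 0.0446) was lost in 9 of 14 alternatives, the omission of any single library included (adjusted p between 0.00703 and 0.147).

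The other phosphofructokinases moved less. Pfkl, the liver isoform, was higher in AT-3 both with wild type (0.32 ± 0.05, adjusted p = 1.71e-05) and with Y238A (0.37 ± 0.05, adjusted p = 8.04e-06), while Pfkm, the muscle isoform, fell by 0.41 ± 0.10 with wild type (adjusted p = 0.00129). Neither passed against empty vector in E0771. Pfkfb3, which makes fructose 2,6-bisphosphate, the activator of phosphofructokinase, had 116, 107 and 109 CPM with wild-type MRTFA and 39.7, 39.4 and 41 CPM with Y238A in AT-3, against 41.3, 39.7 and 39.7 CPM with empty vector. The E0771 libraries had 87.8, 85 and 81.3 CPM with wild-type MRTFA and 45.6, 49.7 and 39 CPM with Y238A, against 57, 56.6 and 54.4 CPM with empty vector. Wild type was thus highest in both lines without overlap, by 1.46 ± 0.06 in AT-3 (adjusted p = 7.24e-14) and 0.60 ± 0.06 in E0771 (adjusted p = 4.35e-07). Y238A was lowest in E0771, at -0.32 ± 0.06 (adjusted p = 0.00215), the only call with Y238A in E0771 that held in all alternatives run. Pfkfb4, its paralogue, fell by 0.50 ± 0.07 with Y238A in AT-3 (adjusted p = 5.68e-06). It gave -0.11 ± 0.07 with wild type (adjusted p = 0.153), a value that passed with library totals and without AT-3 wild-type replicate 2 or 3 (adjusted p over the alternatives between 0.00152 and 0.566).

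Aldolase A, the main aldolase, rose with both constructs. Aldoa had 1077, 1174 and 1163 CPM with wild-type MRTFA and 1235, 1222 and 1192 CPM with Y238A in AT-3, against 644, 651 and 660 CPM with empty vector. In E0771 it had 1294, 1326 and 1318 CPM with wild-type MRTFA and 1101, 1042 and 1151 CPM with Y238A, against 936, 1009 and 991 CPM with empty vector. In AT-3 both constructs were above empty vector (0.80 ± 0.04 with wild type, adjusted p = 2.39e-12, and 0.90 ± 0.04 with Y238A, adjusted p = 2.36e-12). The wild-type libraries all lay below those of Y238A in AT-3, at -0.10 ± 0.04 (adjusted p = 0.0622), a value that passed as lower in 6 of 14 alternatives (adjusted p over them between 5.19e-06 and 0.284). In E0771 wild type was above both, by 0.42 ± 0.04 against empty vector (adjusted p = 3.42e-07). The Y238A value of 0.17 ± 0.04 (adjusted p = 0.0176) was lost without Y238A replicate 3, without empty vector replicate 1 and without the 4 carry-over libraries (adjusted p up to 0.0856). The short second Aldoa entry stayed below 4 CPM and fell by 1.22 ± 0.30 with wild type in AT-3 (adjusted p = 0.00133). Aldoc, the brain aldolase, stayed below 1 CPM and passed in no construct contrast.

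Gpi1 and Tpi1, the isomerases on either side of aldolase, were lower in AT-3 cells with wild-type MRTFA. Tpi1 had 215, 249 and 266 CPM with wild-type MRTFA and 561, 574 and 562 CPM with Y238A in AT-3, against 548, 561 and 575 CPM with empty vector. Wild type lay below every other AT-3 library, by 1.21 ± 0.08 below empty vector (log2 fold change -1.21, adjusted p = 3.06e-11), and Y238A overlapped empty vector at 0.01 ± 0.07 (adjusted p = 0.946). Gpi1 had 297, 324 and 332 CPM with wild-type MRTFA and 503, 518 and 516 CPM with Y238A in AT-3, against 464, 451 and 466 CPM with empty vector, a log2 fold change of -0.54 ± 0.05 for wild type (adjusted p = 1.25e-08). Its Y238A rise of 0.15 ± 0.05 (adjusted p = 0.0192) was lost without Y238A replicate 2 or without empty vector replicate 2 (adjusted p up to 0.06). In E0771 neither isomerase passed, with wild-type values of -0.07 ± 0.07 for Tpi1 (adjusted p = 0.535) and -0.09 ± 0.05 for Gpi1 (adjusted p = 0.201).

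**Figure D2:**
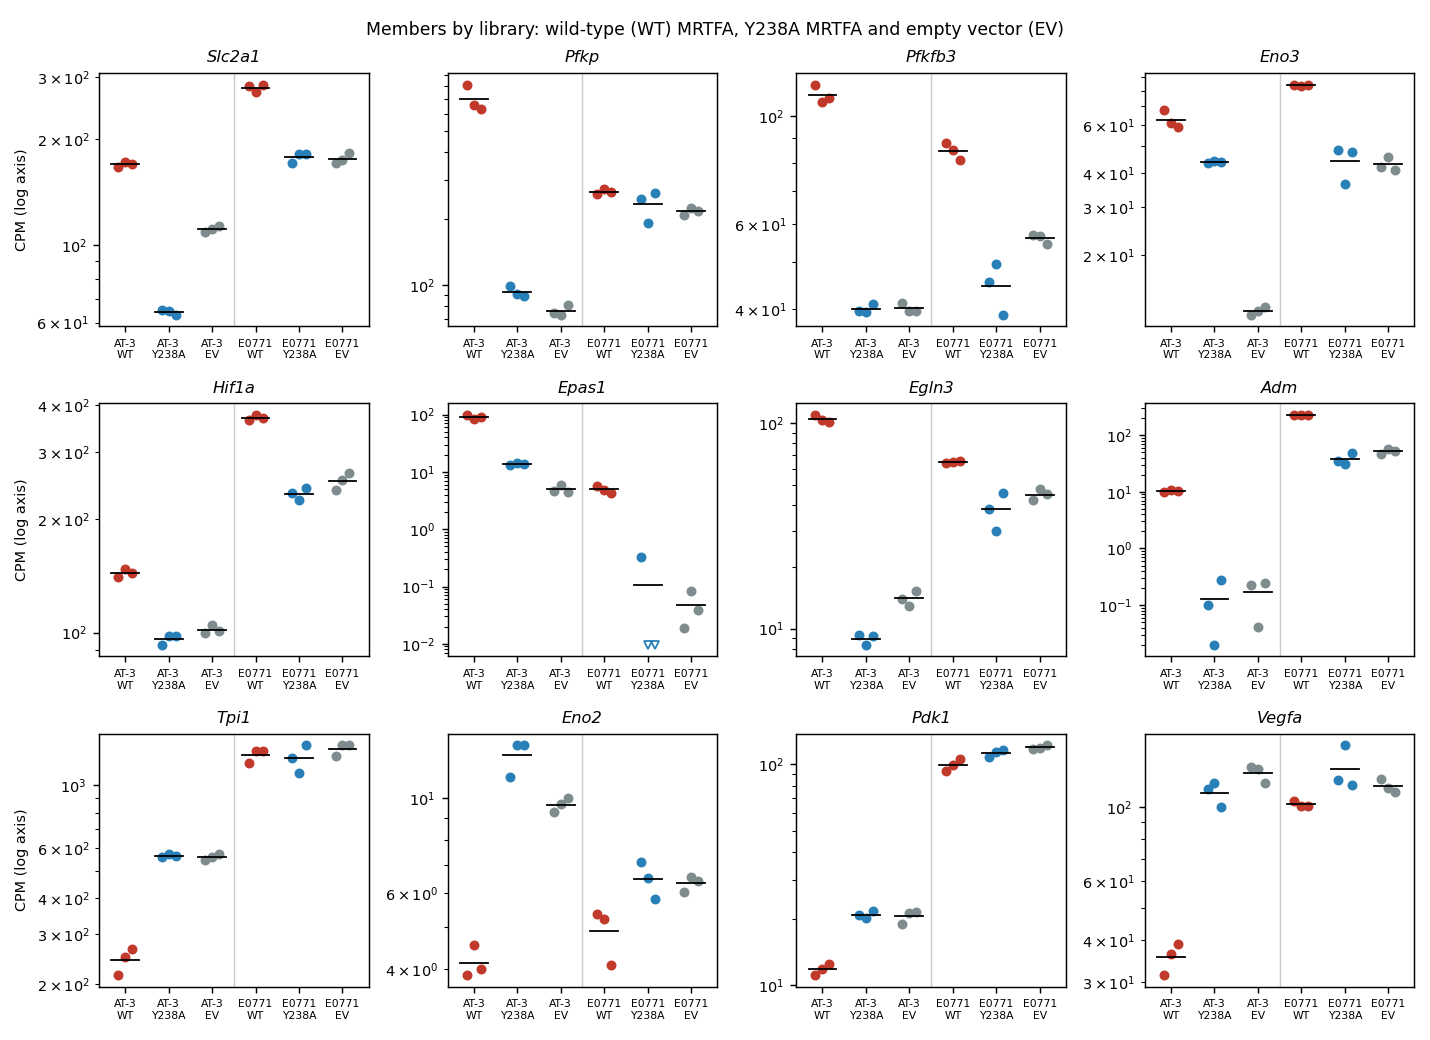
CPM on a log axis for 12 members, with 1 point for each library, a line at the mean of each group, and open triangles at the lower edge for libraries at 0 CPM. In the upper 8 panels wild type (red) is the highest group within each line, and in Tpi1, Eno2, Pdk1 and Vegfa the AT-3 wild-type points are the lowest of that line.

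In lower glycolysis most enzymes rose with wild-type MRTFA in AT-3. Pgk1, the first enzyme of the pathway that yields ATP, had 934, 954 and 909 CPM with wild-type MRTFA and 490, 489 and 493 CPM with Y238A in AT-3, against 531, 536 and 535 CPM with empty vector. Wild type was higher by 0.80 ± 0.05 without overlap (adjusted p = 4.45e-12), whereas in E0771 it stood at -0.01 ± 0.05 (adjusted p = 0.926). The Y238A value in AT-3, -0.12 ± 0.05 (adjusted p = 0.0349), was lost in 8 of 14 alternatives, the omission of any single library of either group included (adjusted p up to 0.12). Gapdh, which makes the NADH of glycolysis, rose with wild type by 0.30 ± 0.04 in AT-3 (adjusted p = 5.08e-07) and 0.18 ± 0.04 in E0771 (adjusted p = 0.00104). Its Y238A values were lower, -0.15 ± 0.04 in AT-3 (adjusted p = 0.00341) and -0.14 ± 0.04 in E0771 (adjusted p = 0.0158). The E0771 call was lost without empty vector replicate 3 and without the 4 carry-over libraries (adjusted p up to 0.179). Pgam1, a mutase, fell by 0.27 ± 0.06 with wild type in AT-3 (adjusted p = 0.000697). It gave -0.15 ± 0.06 in E0771 (adjusted p = 0.0854), which passed with library totals (lowest adjusted p 0.0412).

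The 3 enolase genes went apart. Eno1, the ubiquitous enolase, had 2505, 2642 and 2597 CPM with wild-type MRTFA and 1757, 1670 and 1682 CPM with Y238A in AT-3, against 1665, 1670 and 1698 CPM with empty vector, a rise of 0.62 ± 0.04 with wild type (adjusted p = 2.74e-11). Its wild-type value against empty vector in E0771 was 0.06 (adjusted p = 0.275). That value passed with the stricter filter (0.13, adjusted p = 0.00825) and with each line fitted alone (0.11, adjusted p = 0.0476). Eno3, the muscle enolase, had 67.9, 60.7 and 58.7 CPM with wild-type MRTFA and 43.4, 44.1 and 44 CPM with Y238A in AT-3, against 12.1, 12.5 and 12.9 CPM with empty vector. In E0771 Eno3 had 84.1, 82.9 and 83.9 CPM with wild-type MRTFA and 48.7, 36.3 and 47.5 CPM with Y238A, against 42.1, 45.8 and 40.9 CPM with empty vector. Its wild-type rise stood clear of empty vector in both lines, 2.32 ± 0.09 in AT-3 (adjusted p = 4.81e-15) and 0.96 ± 0.08 in E0771 (adjusted p = 1.44e-08). Y238A rose in AT-3 by 1.81 ± 0.09 (adjusted p = 1.19e-12) but gave 0.04 ± 0.08 in E0771 (adjusted p = 0.823).

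Eno2, the neuronal enolase and a known hypoxia target, went the other way. It had 3.87, 4.55 and 3.99 CPM with wild-type MRTFA and 11.2, 13.3 and 13.3 CPM with Y238A in AT-3, against 9.28, 9.72 and 10 CPM with empty vector. E0771 libraries held 5.38, 5.22 and 4.09 CPM with wild-type MRTFA and 7.11, 6.52 and 5.82 CPM with Y238A, against 6.03, 6.55 and 6.41 CPM with empty vector. Wild type was the lowest group in both lines. The fall was 1.23 ± 0.12 in AT-3 (log2 fold change -1.23, adjusted p = 1.72e-08), whereas in E0771 the value of -0.37 ± 0.12 (adjusted p = 0.0295) was lost in 6 of 14 alternatives, among them the omission of wild-type replicate 3 or of empty vector replicate 2 or 3 (adjusted p up to 0.166).

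Pkm, pyruvate kinase, was the most abundant member per kilobase in AT-3. It had 6708, 6720 and 6605 CPM with wild-type MRTFA and 6227, 6317 and 6270 CPM with Y238A in AT-3, against 4172, 4210 and 4351 CPM with empty vector. Both constructs stood well above empty vector, by 0.65 ± 0.04 for wild type (adjusted p = 4.44e-12) and 0.56 ± 0.04 for Y238A (adjusted p = 2.2e-10). The difference between the constructs, 0.09 ± 0.04 (adjusted p = 0.0403), depended on the scaling. It was -0.08 with library totals (adjusted p = 0.0343) and -0.01 without wild-type replicate 2 (adjusted p = 0.809), and the omission of any 1 library of either group ended the call, so no direction is given. In E0771 wild type gave 0.15 ± 0.04 (adjusted p = 0.00676) and Y238A 0.05 ± 0.04 (adjusted p = 0.414).

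Among the genes that decide the fate of pyruvate, Ldha rose and Ldhb, Slc16a1 and Pdk1 fell in AT-3 cells with wild-type MRTFA. Ldha, the lactate dehydrogenase subunit that favours lactate, had 1125, 1194 and 1169 CPM with wild-type MRTFA and 847, 843 and 841 CPM with Y238A in AT-3, against 716, 715 and 712 CPM with empty vector. The 3 groups did not overlap, and the log2 fold changes were 0.70 ± 0.04 for wild type (adjusted p = 1.31e-11) and 0.24 ± 0.04 for Y238A (adjusted p = 0.000115). In E0771, with 2521 ± 92.7 CPM in wild type and 2426 ± 114 CPM in Y238A, against 2533 ± 103 CPM in empty vector, no contrast passed. Ldhb, the subunit that favours pyruvate, had 7.87, 7.03 and 6.1 CPM with wild-type MRTFA and 15.3, 16.2 and 16.5 CPM with Y238A in AT-3, against 12.1, 11.8 and 12.2 CPM with empty vector. Wild type was lowest, at -0.78 ± 0.19 against empty vector (adjusted p = 0.00123).

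In E0771 Ldhb was near 0, with 22 counts in all over the 3 wild-type libraries and 2 over the Y238A libraries, against 22 with empty vector. The ratio of Y238A to empty vector by counts was 0.096 (95% counting interval 0.0109 to 0.391), and the call (adjusted p = 0.0425) was lost in 6 of 13 alternatives, among them the omission of Y238A replicate 1 or 2 or of empty vector replicate 2 or 3 (adjusted p up to 0.494). As a percentage of its AT-3 level, Ldhb stood in E0771 at 1.02, 1.16 and 1.02 with wild-type MRTFA and 0, 0 and 0.143 with Y238A, against 0, 1.22 and 0.651 with empty vector. The median carry-over of AT-3 genes in the same libraries was 0.0348%, 0.508% and 0% with wild-type MRTFA and 0.269%, 0.0616% and 0% with Y238A, against 0%, 1.35% and 0% with empty vector. Slc16a1, the transporter MCT1, fell with wild type in both lines, at -0.28 ± 0.05 in AT-3 (adjusted p = 1.19e-05) and -0.24 ± 0.04 in E0771 (adjusted p = 0.000425). Slc16a3, the lactate exporter MCT4, passed in no construct contrast of either line.

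Pdk1, a kinase that inhibits pyruvate dehydrogenase and a classical hypoxia target, fell with wild type. It had 11.1, 11.8 and 12.5 CPM with wild-type MRTFA and 20.7, 20.1 and 21.7 CPM with Y238A in AT-3, against 18.9, 21.3 and 21.4 CPM with empty vector. In E0771 cells the values were 93.3, 98.8 and 106 CPM with wild-type MRTFA and 108, 113 and 116 CPM with Y238A, against 117, 119 and 122 CPM with empty vector. In both lines each wild-type library lay below each empty vector library, with log2 fold changes of -0.80 ± 0.06 in AT-3 (adjusted p = 4.13e-10) and -0.26 ± 0.06 in E0771 (adjusted p = 0.00163). Y238A gave 0.02 ± 0.06 in AT-3 (adjusted p = 0.83) and -0.09 ± 0.06 in E0771 (adjusted p = 0.345).

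Of the 4 genes of oxygen sensing, 4 changed with wild-type MRTFA in AT-3 and 3 in E0771, and 0 of 4 passed with Y238A in E0771. The shares of all genes called in these comparisons were 68.6%, 24.5% and 12%, and the role was not tested against them. Hif1a had 140, 147 and 144 CPM with wild-type MRTFA and 92.8, 98.2 and 98.2 CPM with Y238A in AT-3, against 99.5, 105 and 101 CPM with empty vector. The E0771 libraries had 365, 377 and 371 CPM with wild-type MRTFA and 234, 224 and 242 CPM with Y238A, against an average of 252 ± 13.6 CPM with empty vector (SD, n = 3). Wild type was highest in both lines, by 0.50 ± 0.04 in AT-3 (adjusted p = 3.76e-09) and 0.56 ± 0.04 in E0771 (adjusted p = 5.36e-09). Y238A passed in neither (adjusted p = 0.166 in AT-3 and 0.119 in E0771).

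Epas1, which encodes HIF-2α, had the largest fitted wild-type rise of the members in E0771 and the second after Adm in AT-3. In AT-3 it had 98.7, 82.6 and 91.2 CPM with wild-type MRTFA and 13.2, 14.5 and 13.7 CPM with Y238A, against 4.65, 5.86 and 4.41 CPM with empty vector. In E0771 it had 5.7, 4.88 and 4.26 CPM with wild-type MRTFA and 0.323, 0 and 0 CPM with Y238A, against 0.0192, 0.0842 and 0.0392 CPM with empty vector. The AT-3 groups were in 3 separate steps, 4.19 ± 0.29 for wild type (adjusted p = 9.51e-09) and 1.47 ± 0.27 for Y238A (adjusted p = 0.000473), of which the Y238A call was lost with DESeq2 (adjusted p = 0.15, the highest of 14 alternatives, the lowest being 9.82e-09). In E0771 only wild type was clear of 0, by 6.70 ± 0.54 against empty vector (adjusted p = 5.15e-07), or 7.35 without empty vector replicate 2. Without Y238A replicate 1, the Y238A libraries held 0 counts against 1472 over the wild-type libraries, a level at least 299.9-fold higher with wild type (floor of 3 counts over the group, counting error only). In wild-type libraries of E0771 the gene stood at 4.69% to 6.27% of its AT-3 wild-type level, above the carry-over of these libraries.

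The hydroxylases split. Egln3, PHD3, itself induced by hypoxia, had 110, 104 and 102 CPM with wild-type MRTFA and 9.29, 8.34 and 9.23 CPM with Y238A in AT-3, against 14, 12.9 and 15.3 CPM with empty vector. E0771 libraries held 64, 65 and 65.9 CPM with wild-type MRTFA and 38.5, 30 and 46 CPM with Y238A, against 42.2, 47.8 and 45.1 CPM with empty vector. Wild type was above all others in each line, by 2.90 ± 0.11 in AT-3 (adjusted p = 1.18e-13) and 0.53 ± 0.10 in E0771 (adjusted p = 0.00102). Y238A was lowest in AT-3, at -0.65 ± 0.11 (adjusted p = 0.000115). In E0771 the Y238A value was -0.24 ± 0.10 (adjusted p = 0.156), and it passed without Y238A replicate 3 (adjusted p = 0.00448). Egln1, PHD2, the hydroxylase that sets HIF levels in most cells, fell by 0.40 ± 0.08 with wild type in AT-3 (adjusted p = 0.000236) and gave 0.12 ± 0.08 in E0771 (adjusted p = 0.299). Against Y238A, wild type was lower for Egln1 in AT-3, at -0.39 ± 0.08 (adjusted p = 0.000341), and higher in E0771, at 0.34 ± 0.08 (adjusted p = 0.00367), a line difference of 0.72 (adjusted p = 3.22e-05).

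Of the 7 hypoxia-induced effectors, Adm, Car9 and Ankrd37 rose and Vegfa fell in AT-3 cells with wild-type MRTFA, and Bnip3, Ndrg1 and P4ha1 did not pass. Beside them, 36.4% of all genes rose and 32.2% fell in that comparison. Adm, precursor of the vasodilator adrenomedullin, had 9.92, 10.8 and 10.4 CPM with wild-type MRTFA and 0.0993, 0.02 and 0.273 CPM with Y238A in AT-3, against 0.231, 0.0421 and 0.248 CPM with empty vector. In E0771 it had 226, 225 and 226 CPM with wild-type MRTFA and 35, 30.5 and 48.9 CPM with Y238A, against 45.9, 56.9 and 51.9 CPM with empty vector. Wild type was far above the rest in both lines, by 5.94 ± 0.37 in AT-3 (adjusted p = 4.15e-09) and 2.13 ± 0.19 in E0771 (adjusted p = 2.04e-06). The AT-3 difference from Y238A, 6.32 ± 0.37 (adjusted p = 2.63e-09), was 7.41 without Y238A replicate 3. With Y238A and empty vector in AT-3 the gene was at 0.0524% to 0.716% of its E0771 level, where 85 E0771 genes had a median of 0.0366% to 0.136%.

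Vegfa, the vessel growth factor that is the best known HIF target, moved the other way. It had 31.5, 36.4 and 39 CPM with wild-type MRTFA and 113, 118 and 100 CPM with Y238A in AT-3, against 132, 130 and 118 CPM with empty vector. Wild type was far below the other groups, by 1.83 ± 0.10 (log2 fold change -1.83, adjusted p = 1.99e-11), and the Y238A libraries lay just below those of empty vector, at -0.20 ± 0.09 (adjusted p = 0.106, or 0.0486 with each line fitted alone). In E0771 Vegfa averaged 102 ± 2 CPM with wild-type MRTFA and 130 ± 20.5 CPM with Y238A, against 115 ± 5.4 CPM with empty vector, and it passed only between the constructs, at -0.35 ± 0.09 (adjusted p = 0.0103).

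Car9, the carbonic anhydrase that acidifies the outside of hypoxic cells, was low throughout, with 2.32, 2.08 and 1.36 CPM with wild-type MRTFA and 0.208, 0.4 and 0.304 CPM with Y238A in AT-3, against 0.509, 0.232 and 0.52 CPM with empty vector, a rise of 2.20 ± 0.35 (adjusted p = 1.14e-05). In E0771 its wild-type value was 0.72 ± 0.34 (adjusted p = 0.141). Ankrd37, a small ankyrin protein, had 1.23, 1.14 and 1 CPM with wild-type MRTFA and 0.794, 0.97 and 0.745 CPM with Y238A in AT-3, against 0.463, 0.463 and 0.557 CPM with empty vector. It was higher by 1.19 ± 0.24 with wild type (adjusted p = 0.000232) and by 0.76 ± 0.25 with Y238A (adjusted p = 0.0164), a call lost without Y238A replicate 2 or without empty vector replicate 1 or 2 (adjusted p up to 0.0765).

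Ndrg1, a stress-induced protein, had 220, 206 and 202 CPM with wild-type MRTFA and 110, 136 and 142 CPM with Y238A in AT-3, against 172, 208 and 208 CPM with empty vector. Y238A was below both other groups, by 0.60 ± 0.15 (log2 fold change -0.60, adjusted p = 0.00471). In E0771 cells the values were 90, 89.2 and 92.4 CPM with wild-type MRTFA and 50.7, 82.4 and 54.5 CPM with Y238A, against 65.9, 70.5 and 70.6 CPM with empty vector. There the wild-type value was 0.39 ± 0.15 (adjusted p = 0.0754), and it passed with the replicate number as a block (adjusted p = 0.0481), with DESeq2 (adjusted p = 0.044) and with the stricter filter (adjusted p = 0.0411, the lowest of the alternatives, the highest being 0.181). The E0771 difference between constructs, 0.53 ± 0.15 (adjusted p = 0.0174), was lost without wild-type replicate 3, without Y238A replicate 1 or 3, and without the 4 carry-over libraries (adjusted p up to 0.0787). P4ha1, a collagen prolyl hydroxylase, was lower with Y238A, at -0.32 ± 0.11 in AT-3 (adjusted p = 0.0305) and -0.37 ± 0.11 in E0771 (adjusted p = 0.0445). Those P4ha1 calls were lost in 8 of 14 alternatives in AT-3, the omission of any single library included (adjusted p up to 0.0828), and in 9 of 14 in E0771, without Y238A replicate 1 or empty vector replicate 2 or 3 among them (adjusted p up to 0.204). Bnip3, a mitophagy receptor, passed in no construct contrast.

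Within families, the shares of the paralogues per kilobase of exon shifted with wild-type MRTFA in AT-3. Pfkp made up 40.6 ± 2.58% of phosphofructokinase CPM per kilobase with wild-type MRTFA and 7.4 ± 0.181% with Y238A, against 7.5 ± 0.442% with empty vector (SD, n = 3). Egln3 made up 65 ± 2.48% of Egln1 plus Egln3 with wild-type MRTFA and 10.8 ± 0.621% with Y238A, against 15.8 ± 0.915% with empty vector, so that Egln3 led in wild type and Egln1 in the other groups. Epas1 made up 39.9 ± 2.69% of the HIF alpha pair with wild-type MRTFA and 13.1 ± 0.316% with Y238A, against 4.89 ± 0.592% with empty vector. Pfkfb3 led Pfkfb4 with wild-type MRTFA (72.2 ± 0.812%) and Y238A (55.2 ± 1.48%), against 46.7 ± 2.05% with empty vector. Which paralogue leads depends on the exon lengths used. By CPM alone, Pfkfb3 led Pfkfb4 with empty vector too, at 40.2 against 29.6 CPM in AT-3. Pfkp had 700 CPM against 389 CPM for Pfkl in AT-3 wild type. In E0771 the shares per kilobase with wild-type MRTFA were 19.5% for Pfkp, 31.7% for Egln3, 1.39% for Epas1 and 64.5% for Pfkfb3, against 16.5%, 25.9%, 0.0198% and 54.7% with empty vector. Summed over the 16 glycolytic enzymes between hexokinase and Pkm, CPM averaged 17019 ± 218 with wild-type MRTFA and 14724 ± 60.7 with Y238A in AT-3, against 11947 ± 146 with empty vector, without overlap. In E0771 the sum was 16249 ± 161 with wild-type MRTFA and 14437 ± 588 with Y238A, against 14894 ± 472 with empty vector, where Y238A overlapped empty vector. Pkm, Eno1 and Gapdh hold most of these sums.

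**Figure D3:**
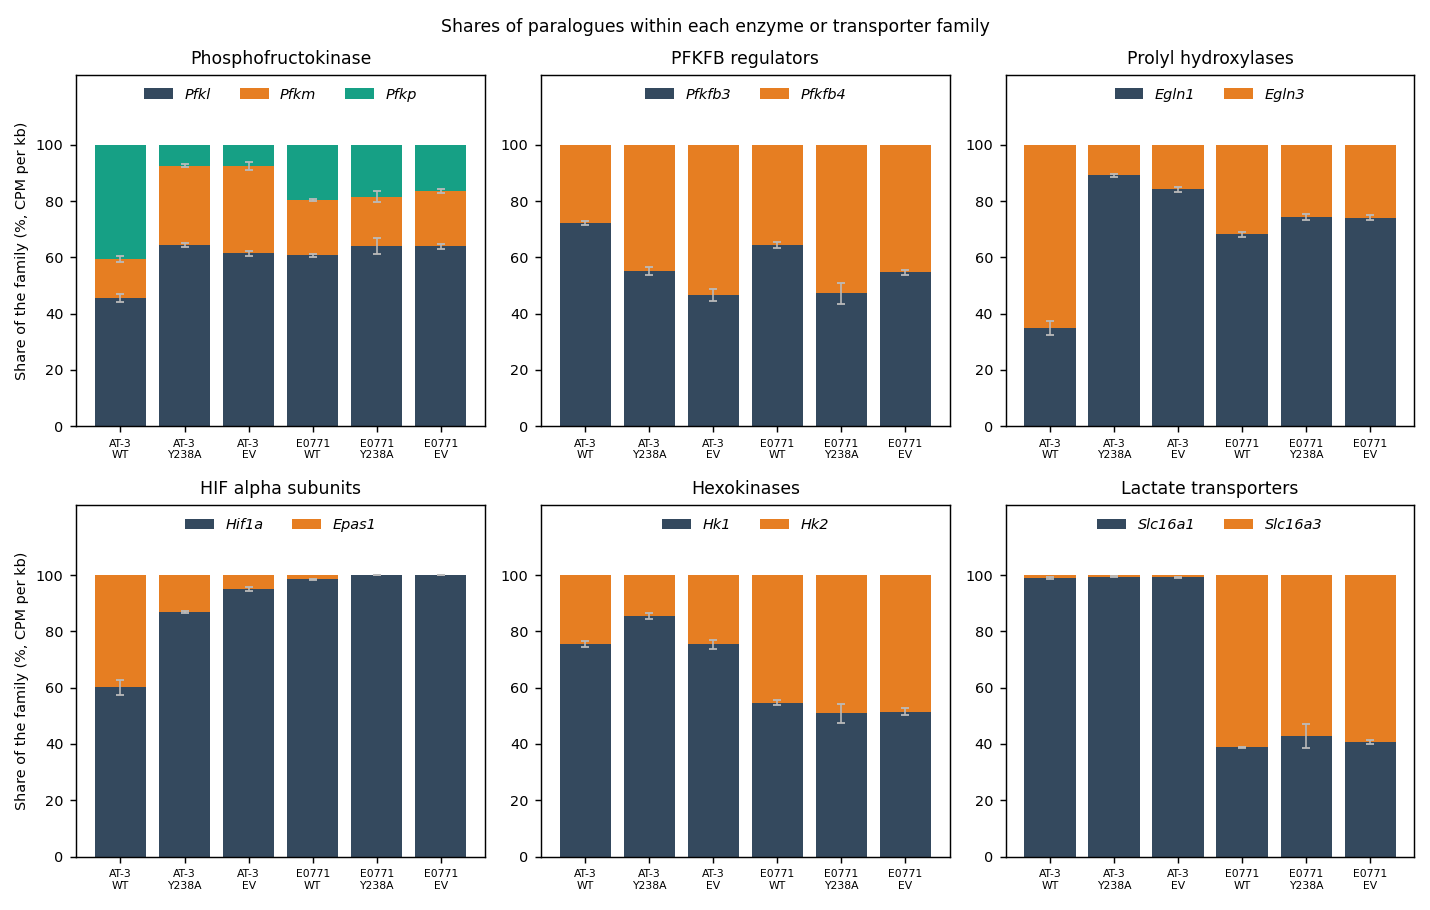
Mean share of each paralogue (y axis, percent of the family's CPM per kilobase of exon, bars from 0) in the 6 groups (x axis), with the SD over 3 libraries of each lower paralogue's share at its upper edge. The Pfkp share stands at 40.6% and the Egln3 share at 65% in AT-3 wild type, and Slc16a3 makes up 61.1% of the lactate transporters in E0771 wild type, against 0.984% in AT-3 wild type.

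The lines differed in these genes before any construct acted, and 34 of the 37 entries differed between AT-3 and E0771 with empty vector, 9 higher and 25 lower in AT-3 cells (91.9%, beside 72% of all genes). Their median log2 difference was -0.67, against 0.01 over all genes. Slc16a3 stood at 0.995, 0.611 and 1.21 CPM in AT-3, against 584, 631 and 623 CPM in E0771, a log2 difference of -9.37 ± 0.22 (adjusted p = 2.35e-14), and its AT-3 level, 0.0997% to 0.198% of that in E0771, is near the median carry-over of E0771 genes. Adm was lower in AT-3 by 8.25 ± 0.34 (adjusted p = 2.78e-11) and Slc2a3 by 6.26 ± 0.25 (adjusted p = 2.96e-13). Ldhb was higher in AT-3 by 7.33 ± 0.31 (adjusted p = 1.89e-14), or by 6.72 to 8.21 with 1 library left out, and Epas1 by 6.70 ± 0.54 (adjusted p = 4.55e-08), or 7.34 without E0771 replicate 2. Hif1a, Egln3, Pdk1, Hk2 and Ldha were all lower in AT-3, with log2 differences between -2.54 for Pdk1 and -1.27 for Hk2, while Pkm was higher by 0.91 ± 0.04 (adjusted p = 1.18e-14).

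**Figure D4:**
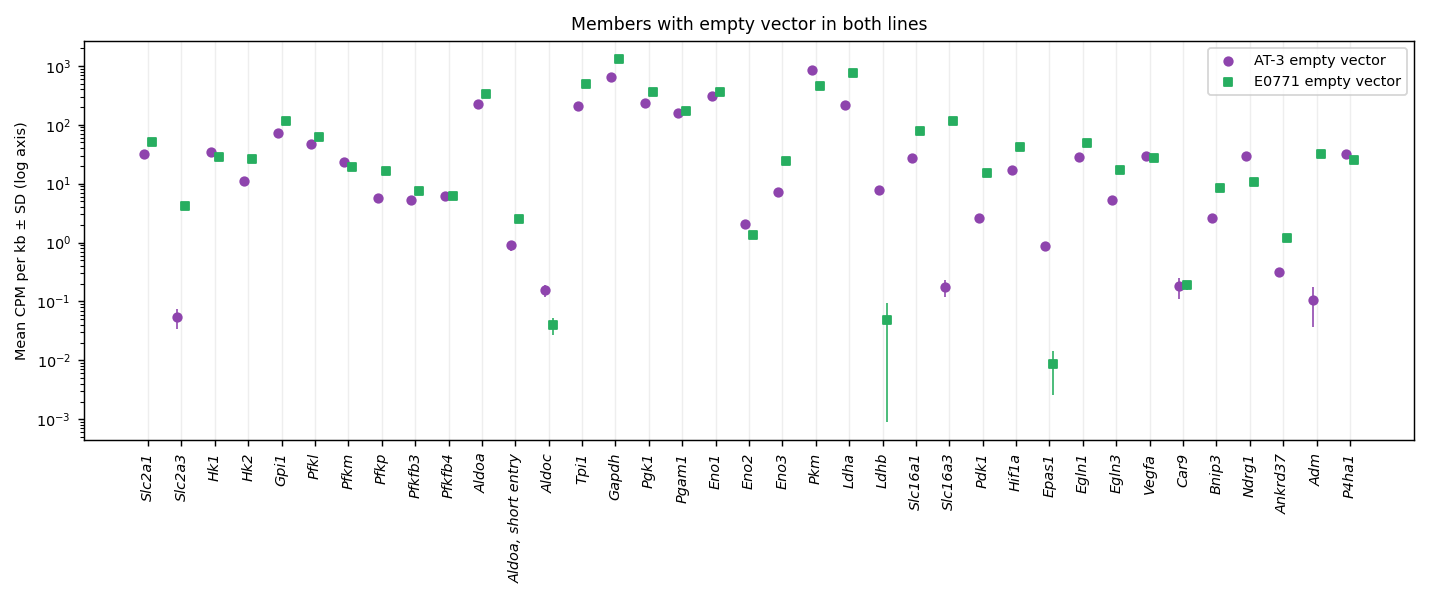
Mean CPM per kilobase of exon (y axis, log scale, ± SD, n = 3) of the 37 entries (x axis, pathway order) with empty vector in AT-3 (purple circles, left of each pair) and E0771 (green squares). Most members lie higher in E0771, and Ldhb, Epas1, Slc16a3, Slc2a3 and Adm differ by more than 6 on the log2 scale.

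Of the 29 members called for wild type against empty vector in AT-3 and the 15 in E0771, 14 were the same genes (48.3% of the AT-3 list and 93.3% of the E0771 list), and all 14 had the same direction in both lines. Over all genes, 3819 were called in both (31.2% of the AT-3 list and 87.5% of the E0771 list), of which 3410 had the same direction (89.3%). For wild type against Y238A, 15 members were called in both (50% of the 30 in AT-3 and 93.8% of the 16 in E0771), 13 with the same direction. Ldhb and Egln1 were lower in AT-3 and higher in E0771. The E0771 call of Ldhb rested on 22 counts with wild type against 2 with Y238A. It was lost without wild-type replicate 2, without Y238A replicate 1 or 2, and without the 4 carry-over libraries (adjusted p up to 0.112). With wild type against empty vector, those higher in both were Slc2a1, Pfkp, Pfkfb3, Aldoa, Gapdh, Eno3, Pkm, Hif1a, Epas1, Egln3 and Adm, and those lower were Eno2, Slc16a1 and Pdk1. Tested directly, the effect of wild type against empty vector differed between lines for 23 members (62.2%, where 47.3% of all genes did), 9 with a higher and 14 with a lower value in E0771, where 24% of all genes were lower. The effect of Y238A differed for 12 (32.4%, where 25.8% of all genes did), 2 higher and 10 lower, and the effect of wild type against Y238A for 25 (67.6%, where 45.7% did). With library totals 15 members had a higher wild-type effect in E0771 and 14 a lower, and 15 were also higher without AT-3 wild-type replicate 2 or 3. Slc2a1 and Hif1a, whose wild-type effects were 0.62 and 0.50 in AT-3 and 0.67 and 0.56 in E0771, differed between lines by 0.05 (adjusted p = 0.457) and 0.06 (adjusted p = 0.472), and each passed under library totals and without AT-3 wild-type replicate 2 or 3 (lowest adjusted p 0.00373).

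Genes next to these pathways moved unevenly, and their counts stand beside 68.6% of all genes called with wild type in AT-3 (36.4% higher and 32.2% lower) and 24.5% in E0771 (11.2% higher and 13.3% lower). Of 7 pentose phosphate genes, which divert glucose 6-phosphate, 1 rose and 5 fell in AT-3 cells with wild-type MRTFA (0 and 3 in E0771). G6pdx, the entry enzyme, fell with wild type, at -1.30 in AT-3 (adjusted p = 8.03e-15) and -0.36 in E0771 (adjusted p = 1.37e-05). Tkt, transketolase, gave -1.03 in AT-3 (adjusted p = 4.65e-13) and -0.52 in E0771 (adjusted p = 1.19e-07). With Y238A, Taldo1, transaldolase, rose by 1.14 in AT-3 (adjusted p = 1.69e-14) and 0.38 in E0771 (adjusted p = 2.58e-06). All 13 glycogen and gluconeogenesis genes tested (of 16 listed) changed with wild type in AT-3, 10 up and 3 down, and in E0771 5 rose and 1 fell. Gys1, glycogen synthase, rose by 2.45 in AT-3 (adjusted p = 5.65e-17) and 0.68 in E0771 (adjusted p = 8.28e-08). Ugp2, which makes UDP-glucose, rose by 2.08 in AT-3 (adjusted p = 5.52e-15) and 1.27 in E0771 (adjusted p = 8.73e-11).

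The next list held 13 genes of pyruvate entry, that is its carriers, pyruvate dehydrogenase with its kinases and phosphatases, and Pcx. With the same shares of all genes beside them (68.6% called in AT-3 and 24.5% in E0771), 9 rose and 3 fell with wild type in AT-3 and 2 rose and 3 fell in E0771. Those that rose in AT-3 included Pdk3, a paralogue of Pdk1, by 0.38 (adjusted p = 4.36e-05), so the count has no single direction of pyruvate use. Pdha1, the pyruvate dehydrogenase subunit, rose by 1.10 in AT-3 (adjusted p = 5.63e-16) and 0.16 in E0771 (adjusted p = 0.00223), and Mpc1, the pyruvate carrier, by 1.24 (adjusted p = 4.8e-11) and 0.50 (adjusted p = 0.00019). Pcx, pyruvate carboxylase, fell with Y238A, at -1.60 in AT-3 (adjusted p = 1.53e-13) and -0.43 in E0771 (adjusted p = 9.73e-05). Of 15 HIF regulators 4 rose and 6 fell with wild type in AT-3 and 3 rose and 4 fell in E0771. Subunits of the VHL ligase went both ways. Eloc was higher by 0.47 in AT-3 (adjusted p = 1.37e-07) and 0.35 in E0771 (adjusted p = 4.14e-05). Cul2 gave -0.61 in AT-3 (adjusted p = 8.31e-10) and -0.21 in E0771 (adjusted p = 0.00286), and Rbx1 -0.47 (adjusted p = 1.59e-07) and -0.07 (adjusted p = 0.378). Hif3a, a HIF alpha paralogue, had 30.8, 23.3 and 24.8 CPM with wild-type MRTFA and 0.516, 0.02 and 0.0629 CPM with Y238A in AT-3, against 0.0231, 0 and 0 CPM with empty vector.

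Of the 31 other hypoxia targets tested (of 32 listed), 14 rose and 13 fell with wild type in AT-3 (36.4% of all genes rose and 32.2% fell), with a median of 0.19 against 0.07 over all genes, and 2 rose and 4 fell in E0771, with a median of -0.06 against -0.05. Loxl2, a lysyl oxidase, rose by 2.36 in AT-3 (adjusted p = 1.69e-11) and 0.68 in E0771 (adjusted p = 8.25e-06), and Plod2, a collagen lysyl hydroxylase, fell by 1.55 in AT-3 (adjusted p = 2.34e-11) and gave -0.13 in E0771 (adjusted p = 0.338). Of 18 other sugar transporters and kinases tested (of 21 listed), 7 rose and 3 fell with wild type in AT-3 and 2 rose in E0771. Slc2a8, GLUT8, rose with both constructs, by 2.73 with wild type (adjusted p = 3.2e-14) and 2.50 with Y238A (adjusted p = 6.63e-13) in AT-3, and by 0.39 (adjusted p = 0.0199) and 1.05 (adjusted p = 4.25e-06) in E0771. With Y238A, Slc2a6, GLUT6, rose by 3.04 in AT-3 (adjusted p = 2.21e-11) and 1.45 in E0771 (adjusted p = 1.72e-05) and fell with wild type by 0.95 in AT-3 (adjusted p = 0.000109). In the MYC family of 8, Myc itself, another driver of glycolytic genes, fell by 0.97 with wild type in AT-3 (adjusted p = 0.000217) and gave -0.07 in E0771 (adjusted p = 0.818), and 0 of the 8 passed with wild type in E0771.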

How the data were processed

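Gene counts were deposited by the authors for 18 libraries as whole-number counts per Ensembl gene, with no normalization. Reads were aligned with STAR to GRCm38 and counted with featureCounts, per the submitters' processing notes, and their versions, the strand setting and the treatment of multi-mapping reads are not given in the sources used here. Per the labels' protocols, RNA came from Qiagen RNeasy columns and went into a NuGen Universal Plus library kit for mRNA. Reads of Gapdh, Ldha, Pgk1, Pgam1, Aldoa and Eno1 may be shared with pseudogenes or near-identical copies, and those of Slc2a1, Hk1, Hk2, Pfkm, Pfkp, Pfkfb3, Tpi1, Hif1a, Car9, Bnip3, Ndrg1, Ankrd37 and Adm with overlapping genes, so these levels are uncertain.

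From these counts, edgeR 4.0.16 in R 4.3.3 was used with TMM scaling, a filter (filterByExpr, minimum count 10 and total 15), 1 quasi-likelihood model over the 6 groups with 12 residual degrees of freedom, and Benjamini-Hochberg adjustment over 17841 genes at a threshold of 0.05. The procedure was tested on simulated data. Library totals were 81265466 to 115260128 counts. Between 61.9% and 64.6% of the nonzero counts were even, so counting intervals are probably too narrow, and they cover counting error only. Levels per kilobase used the union of GENCODE M21 exons, and promoter windows came from RefSeq.

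Members with a call and a change of at least 1.5-fold in a construct contrast are given library by library, and up to 5 genes of each other list were eligible to be named by their smallest p. The members and lists were chosen with earlier results of these data known. Same-numbered E0771 wild-type and empty vector libraries deviated together (correlations 0.173 to 0.394). Of differently numbered pairs, wild-type replicate 1 with empty vector replicate 3 (0.125) and 3 with 1 (0.132) did too, and the others were negative (-0.264 to -0.223). E0771 Y238A replicate 1 correlated with empty vector replicate 2 (0.279) and wild-type replicate 2 (0.256), the E0771 libraries with most AT-3 carry-over. The main model had no block, so its p-values are unpaired, and the blocked value is given where it changed a call. Alternatives were DESeq2 1.42.0 and its size factors, library totals, other filters, each line alone, the replicate block, and the omission of single libraries or of the 4 carry-over libraries named above.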

Additional observations from a re-analysis of the deposited data

Results flagged for a closer look

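These members are listed because the effect of a construct against empty vector differed between the lines by a test of the difference itself, given on the log2 scale with the AT-3 effect subtracted from that in E0771.

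For wild-type MRTFA the difference was negative for 14 members. In glucose entry and upper glycolysis it was -3.45 for Slc2a3, -0.34 for Pfkl, -2.89 for Pfkp, -0.86 for Pfkfb3 and -0.38 for Aldoa. In lower glycolysis and lactate production it was -0.81 for Pgk1, -0.56 for Eno1, -1.36 for Eno3, -0.51 for Pkm and -0.71 for Ldha. Among hypoxia genes it was -2.38 for Egln3, -1.48 for Car9, -1.42 for Ankrd37 and -3.80 for Adm. The difference was positive for 9 members, most of which fell in AT-3. Among the enzymes it was 0.44 for Gpi1, 0.49 for Pfkm, 1.54 for the second Aldoa entry, 1.13 for Tpi1 and 0.86 for Eno2. For the rest it was 0.53 for Pdk1, 2.51 for Epas1, 0.52 for Egln1 and 1.66 for Vegfa.

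Of these 23, Pfkl lost the call without AT-3 wild-type replicate 2 or 3 (adjusted p up to 0.0986), Epas1 with DESeq2 and without E0771 empty vector replicate 1 or 3 (up to 0.0861), and Car9 without AT-3 wild-type replicate 2, AT-3 empty vector replicate 2 or the 4 carry-over libraries (up to 0.0619). The Epas1 difference was 3.15 without E0771 empty vector replicate 2.

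For Y238A the difference was positive for Slc2a1 (0.80) and Pfkfb4 (0.60). It was negative for 10 members. Among the enzymes it was -0.90 for Hk1, -0.20 for Gpi1, -0.42 for Pfkl, -0.73 for Aldoa, -1.77 for Eno3 and -0.51 for Pkm. For the others it was -0.32 for Pfkfb3, -0.30 for Ldha, -3.57 for Ldhb and -0.22 for Slc16a1. The Gpi1 call was lost in 14 of 19 alternatives (adjusted p up to 0.14), Pfkfb3 (0.0705) and Slc16a1 (0.0715) when the 4 carry-over libraries were omitted, and Ldhb without those 4 or without E0771 empty vector replicate 2 (up to 0.251).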

How the results depend on the processing

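Of 5685 comparisons of a result with an alternative, 5426 kept direction and side of the threshold, 143 lost a call, 114 gained 1 and 2 reversed. Both reversals were Pkm in AT-3 wild type against Y238A, at -0.08 with library totals and -0.01 without wild-type replicate 2. With 1 library left out that value lay between -0.01 and 0.09, and the cause was not tested. Without the 4 carry-over libraries, which leaves fewer samples, 2762 genes were called in E0771 for wild type and 843 for Y238A against empty vector, and Y238A left 0 members higher and 1 lower. In that setting wild type against Y238A left 2 members lower in E0771. For Y238A in E0771, members higher were 2 with the stricter filter and 2 with each line alone, and members lower were 2 with each line alone. With 1 library left out, that contrast called 1251 to 2340 genes, with 0 to 1 members higher and 1 to 8 lower. The line difference for wild type had 15 members higher with library totals and 8 to 15 with 1 library left out. That for Y238A had 4 higher with DESeq2 size factors, 4 with library totals, 4 with the DESeq2 test, 5 with the stricter filter and 2 to 4 with 1 library left out. Causes were not tested. In E0771, Ldhb rested on 2 counts with Y238A against 22 with empty vector.

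With the replicate number as a block, members lower for Y238A in E0771 were 2, as Ldhb (adjusted p = 0.0598) and P4ha1 (adjusted p = 0.0507) lost their calls. The block gained Ndrg1 for E0771 wild type against empty vector (adjusted p = 0.0481) and Vegfa for the Y238A line difference (adjusted p = 0.0453), and it changed no other member's call. Same-numbered AT-3 libraries did not deviate together (correlations -0.013 to 0.062), nor did all same-numbered E0771 libraries of Y238A and empty vector (-0.180 to 0.194) or of wild type and Y238A (-0.126 to 0.169).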
